A study of Rattus norvegicus with 9 samples.

Results

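Cadherins are cell surface proteins that bind cells to one another, and catenins are the proteins that tie them to the cytoskeleton. The genes described here were picked by their symbol in the platform's annotation. They belong to the cadherins and cadherin-related proteins, the desmogleins and desmocollins, the protocadherins or the large polarity cadherins (Fat, Dchs, Celsr). The rest are armadillo proteins that bind cadherin tails, or alpha-catenins. Only probe sets annotated with 1 gene symbol were taken. This gave 78 probe sets for 58 genes, out of 20826 probe sets and 14217 genes with 1 symbol on the array. Of the 58 genes, 4 were type I classical cadherins, 8 type II classical cadherins, 4 atypical cadherins, 4 cadherin-related proteins, 4 desmosomal cadherins, 5 armadillo proteins of the desmosome plaque, 5 catenins, 7 large polarity cadherins, 8 non-clustered protocadherins and 9 clustered protocadherins. Cdh5 and Celsr1 had no probe set of their own under this rule and are not analysed here.

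Classical cadherins bind the same cadherin on a neighbouring cell, and their cytoplasmic tails hold beta-catenin or plakoglobin, which bind alpha-catenin and through it actin. Desmosomes are built on the same plan, with desmogleins and desmocollins outside, plakoglobin and plakophilins inside, and keratin filaments in place of actin. In the embryonic kidney the Wolffian duct and the ureteric bud are E-cadherin-bearing epithelia, while the mesenchyme around them carries other classical cadherins. Fat and Dachsous proteins bind each other across cell borders and orient cells within a tissue.

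The arrays were hybridised with total RNA of rat embryos (Sprague-Dawley, embryonic day 13). The ureteric bud group (UB) had 3 arrays, each with about 100 buds freed from the embryonic kidney by light digestion with trypsin. The group of Wolffian ducts still carrying their mesodermal cells (WD+IM) had 3 arrays of about 50 ducts, and the group of isolated Wolffian ducts (WD), dissected with no treatment, had 3 arrays of about 100 ducts. The labels name no genotype, drug or transgene in any group. Trypsin was used for the buds alone, so in any comparison with UB the digestion cannot be told apart from the tissue. The replicates are pools of embryos, so a p-value here speaks of the spread among pools. Values are linear intensities (signals), scaled by the authors to a common trimmed mean on all 9 arrays, and their precision is limited by the 3 arrays per group.

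Median signals were 534 to 897 per array. The spike ratio, the signal of the added control transcript bioC over that of bioB, lay between 2.87 and 2.99 for UB and was 2.93 for WD+IM replicate 3, against 1.02 to 1.23 elsewhere (5 arrays). The beta-actin ratio, its 3' over its 5' signal, tells of RNA integrity and reached 1.48 to 2.30 in UB, 1.47 to 1.92 in WD+IM and 2.19 to 4.87 in WD. Summed signals of 12 mesenchyme markers were 8928 to 12391 in UB, 215129 to 257802 in WD+IM and 100030 to 134473 in WD, so the isolated ducts also carried mesenchymal transcripts. The 13 epithelium markers summed to 238662 to 263965 in UB, 82055 to 123673 in WD+IM and 247183 to 257479 in WD. Endothelial markers, 12 in number, summed to 3367 to 4522 in UB, 47237 to 47383 in WD+IM and 5511 to 6756 in WD. Red cell markers, 5 in number, summed to 2443 to 6894 in UB, 71487 to 113429 in WD+IM and 75006 to 124605 in WD. No marker of these lists was at 0 on all arrays of a group. Fewer cells of a type and less RNA per cell cannot be told apart in such tissue samples.

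Only probe sets that exceeded the 40th percentile of an array on 3 or more arrays were tested, and 40 of the 78 member probe sets, for 32 of the 58 genes, passed. Signals of the other 38 probe sets ran from 3.96 to 912 over all arrays. Differences are on the scale of log2(signal + 46.2), the added value being the 10th percentile of all signals. They are given with their standard errors, and fold values refer to the same scale, on which the change of a weak gene is understated. A difference was called where limma's Benjamini-Hochberg adjusted p, taken over all 20334 probe sets tested, lay under 0.05. Since the 3 comparisons use the same arrays, they do not stand independently.

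In UB against WD, 16 of the 40 member probe sets were called, against 29.9% of all probe sets tested. Of these 3 were higher in UB, against 11.3% of all, and 13 were lower, against 18.6% of all. By gene, 1 rose (Pcdh17) and 11 fell (Cdh2, Cdh3, Cdh6, Cdh11, Cdh16, Cdh22, Dsc2, Fat4, Pcdh9, Pcdh15 and Pcdh18). The arrays of the 2 groups did not overlap for 24 of the 40 probe sets, against 47.8% of all. The median member difference was -0.39, against -0.12 over all probe sets tested. With the arrays centred on their medians, the median of all differences moved to 0.34, and the called member probe sets split into 7 higher and 11 lower. In that fit 18 of the 40 members were called, against 7365 of the 20334 probe sets tested. The split of the latter was not counted.

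In WD+IM against WD, 15 of the 40 were called, against 12.7% of all. Higher in WD+IM were 7, against 5.62% of all, and lower were 8, against 7.06% of all. The genes that rose were Cdh11, Pcdh15 and Pcdh17, and those that fell were Cdh1, Cdh16, Dsc2, Dsg2, Pkp2, Pkp3, Pkp4 and Ctnnd2. No overlap between the groups was seen for 25 of the 40 probe sets, against 29.6% of all. The median member difference was -0.25, against -0.04 over all.

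In UB against WD+IM, 20 of the 40 were called, against 25.5% of all. Higher in UB were 9, against 11% of all, and lower were 11, against 14.5% of all. The genes that rose were Cdh1, Dsc2, Dsg2, Pkp2, Pkp3, Pkp4, Ctnnd2 and Pcdh17, and those that fell were Cdh2, Cdh6, Cdh11, Cdh22, Fat4, Jup, Pcdh9, Pcdh15, Pcdh18 and Pcdh19. The groups did not overlap for 26 of the 40 probe sets, against 42.6% of all, and the median member difference was -0.10, against -0.05 over all. After median centring the median of all differences was 0.32 and the called members split into 13 higher and 9 lower. Then 22 of the 40 members were called, against 6403 of the 20334 probe sets tested, whose split was not counted. Over the 40 tested member probe sets, Pearson's r between arrays was 0.958 to 0.990 within a group, 0.650 to 0.731 for UB with WD+IM, 0.745 to 0.807 for UB with WD, and 0.803 to 0.898 for WD+IM with WD. Over all probe sets tested, r was 0.932 to 0.978 within a group and 0.828 to 0.880 for UB with WD+IM. It was 0.844 to 0.900 for UB with WD and 0.871 to 0.919 for WD+IM with WD. These r values are taken across probe sets, which are not independent replicates.

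**Figure D1:**
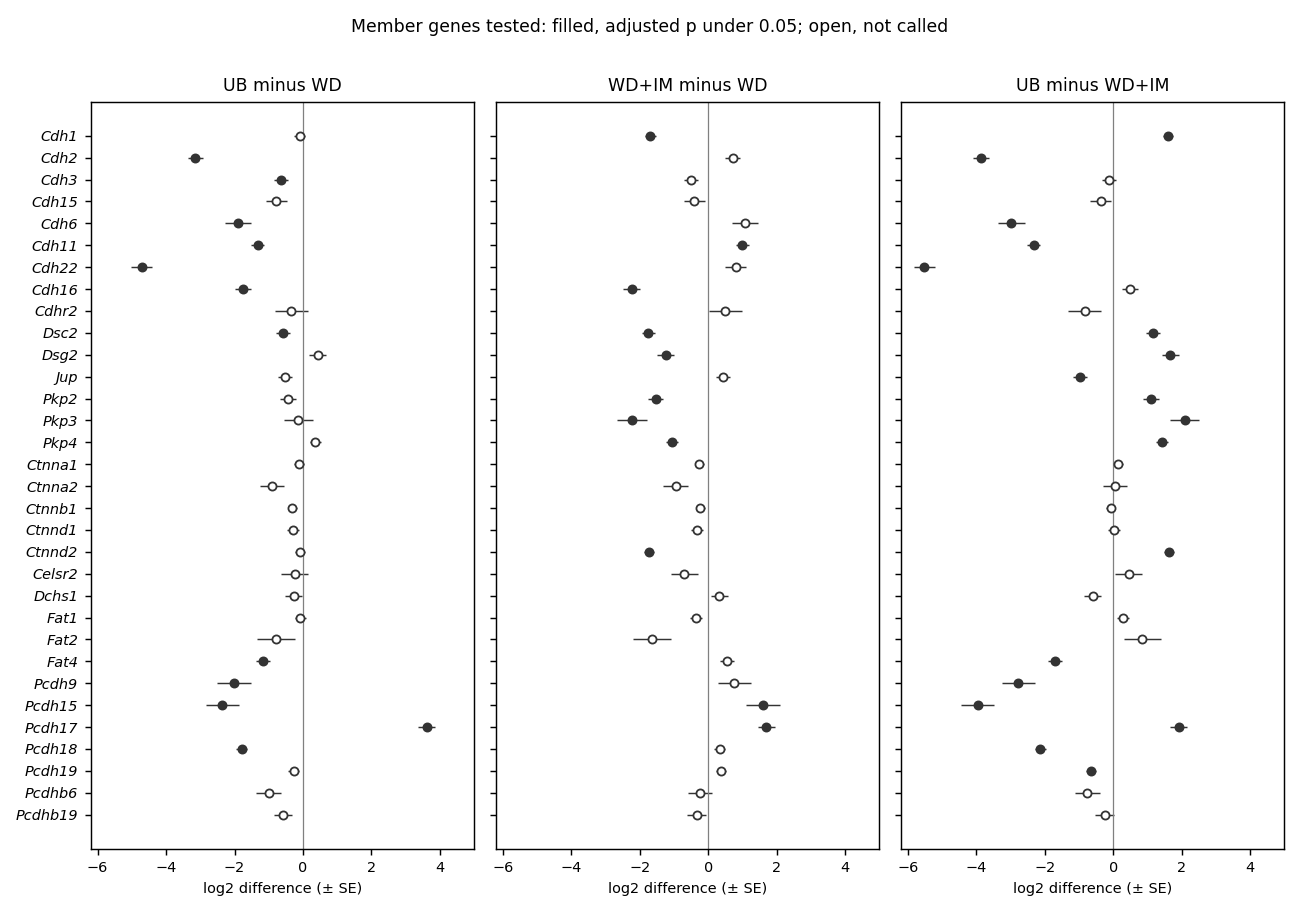
Log2 differences (± SE, 3 arrays a group) of the 32 tested genes in the 3 comparisons, ordered by family, with filled points for an adjusted p under 0.05. Cdh22 has the largest fall in UB against WD (-4.72) and Pcdh17 the largest rise (3.61). Cdh1, Ctnnd2 and the desmosomal genes other than Jup are low in WD+IM.

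Among the type I classical cadherins, E-cadherin and N-cadherin differed in opposite ways between UB and WD+IM. In no other comparison were both called by their brightest probe sets. Cdh1 (E-cadherin), the main adhesion protein of duct epithelium, had signals of 26007, 26887 and 29825 in UB, 7067, 10352 and 10154 in WD+IM, and 31968, 25714 and 30741 in WD. The WD+IM arrays lay below all the others, and the UB and WD arrays overlapped. Cdh1 fell by 1.69 ± 0.16 in WD+IM against WD, a 3.23-fold lower value (adjusted p = 7.01e-05), and was higher by 1.60 ± 0.16 in UB against WD+IM (adjusted p = 1.06e-05). Between UB and WD it differed by -0.09 ± 0.16 (adjusted p = 0.687). Beside this, 11 of the 13 epithelium markers tested were lower and 0 higher in WD+IM than in WD, with a median of -1.47, and the part of this shift in the Cdh1 result was not tested.

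Cdh2 (N-cadherin), a cadherin of mesenchyme and neural tissue, had signals of 516, 365 and 538 in UB, 7734, 5948 and 8829 in WD+IM, and 4718, 5512 and 3468 in WD. The 3 groups did not overlap, with UB lowest and WD+IM highest. Cdh2 was 8.83-fold lower in UB than in WD (-3.14 ± 0.23, adjusted p = 1.52e-06) and 14.5-fold lower in UB than in WD+IM (-3.86 ± 0.23, adjusted p = 1.20e-07). In WD+IM against WD the difference of 0.72 ± 0.23 was not called (adjusted p = 0.0575). It was called without WD+IM replicate 2 (0.87, adjusted p = 0.0481), with the added value at the 25th percentile (0.0456) and under a stricter filter (0.0467). Another probe set of Cdh2 gave -2.15 ± 0.31 in UB against WD and 1.37 ± 0.31 in WD+IM against WD, where it was called (adjusted p = 0.0118).

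Cdh3 (P-cadherin) is the direct neighbour of Cdh1 in the GRCr8 gene table, with 0 protein-coding genes between them. Its signals were 7694, 8701 and 7216 in UB, 6582, 9518 and 9948 in WD+IM, and 10630, 16550 and 10225 in WD. The WD arrays lay above all others, and UB overlapped with WD+IM. Cdh3 fell by 0.63 ± 0.21 in UB against WD (adjusted p = 0.0371), while -0.51 ± 0.21 in WD+IM against WD was not called (adjusted p = 0.129). The UB call was lost without WD replicate 2 (adjusted p = 0.131), without UB replicate 1 (0.102) or UB replicate 3 (0.11), after median centring (-0.17, 0.656), without a mean-variance trend (0.0793), with the spike ratio as a term (0.197) and with the beta-actin covariate (0.271). Cdh15 (M-cadherin), known from muscle, averaged 483 ± 137 in UB, 635 ± 166 in WD+IM and 841 ± 60.3 in WD (SD, n = 3 each) and was called in no comparison, except lower in UB than in WD without a mean-variance trend (adjusted p = 0.0462) or with array weights (0.0465).

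The type II classical cadherins Cdh11 and Cdh22 fell in UB by their brightest probe sets, against WD and against WD+IM. Cdh6 fell as well, but it entered the test only through the groups in which it was high. Cdh22 showed the largest difference of all members tested. Its signals were 244, 331 and 457 in UB, 27550, 12568 and 15396 in WD+IM, and 14632, 8487 and 7973 in WD. Every UB array lay far below every other array, and WD+IM and WD overlapped. Cdh22, first known from pituitary and brain, was 26.3-fold lower in UB than in WD (-4.72 ± 0.31, adjusted p = 8.17e-07) and 46-fold lower than in WD+IM (-5.52 ± 0.31, adjusted p = 9.26e-08). Between WD+IM and WD it differed by 0.81 ± 0.31 (adjusted p = 0.114), which was called after median centring (0.90, adjusted p = 0.0486).

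Cdh11 (OB-cadherin), a cadherin of mesenchymal cells, had signals of 4618, 5111 and 3701 in UB, 26017, 18360 and 23623 in WD+IM, and 13754, 10494 and 9640 in WD. The groups were ordered UB, WD, WD+IM with no overlap. Cdh11 fell by 1.32 ± 0.18 in UB against WD (adjusted p = 0.00028), rose by 1.0 ± 0.18 in WD+IM against WD (adjusted p = 0.00328) and was lower by 2.33 ± 0.18 on the log2 scale in UB than in WD+IM, which is 5.01-fold (adjusted p = 1.44e-06). A weaker probe set of Cdh11, with group means of 341 in UB, 281 in WD+IM and 439 in WD, was called in no comparison. It gave -0.61 ± 0.50 in WD+IM against WD and 0.37 ± 0.50 in UB against WD+IM, opposite in sign to the brightest. In UB against WD it gave -0.24 ± 0.50. With the mean of all Cdh11 probe sets the rise in WD+IM against WD was not called (0.28, adjusted p = 0.522).

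Cdh6 (K-cadherin), known from the developing nephron, had signals of 84.4, 96.9 and 120 in UB, 1659, 950 and 846 in WD+IM, and 703, 467 and 374 in WD. The groups again did not overlap. Cdh6 fell by 1.90 ± 0.38 in UB against WD (adjusted p = 0.00353) and was lower by -2.98 ± 0.38 in UB against WD+IM (adjusted p = 9.81e-05), and 1.08 ± 0.38 in WD+IM against WD was not called (adjusted p = 0.0884) except after quantile normalization (1.31, 0.0389) or without a mean-variance trend (0.0472). None of the 3 UB arrays was above the 40th percentile for Cdh6. Its call in UB against WD was lost with the spike ratio as a term (adjusted p = 0.324). The remaining type II genes, Cdh7, Cdh8, Cdh10, Cdh12 and Cdh20, were not tested, and the signals of the untested probe sets of this family were 7.20 to 735.

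Cdh2, Cdh6, Cdh11 and Cdh22 fell in UB, as did Fat4, Pcdh9, Pcdh15 and Pcdh18, which are described further below. These falls ran beside those of the mesenchyme markers. Of the 11 mesenchyme markers tested, 10 were lower and 0 higher in UB than in WD, with a median of -3.31. In WD+IM against WD, 7 of these 11 rose and 0 fell, with a median of 1.30. Of 6 mesothelium markers tested, 6 were lower in UB than in WD, as were 4 of 4 red cell markers, 4 of 5 smooth muscle markers and 5 of 6 macrophage markers. In the same comparison 5 of 12 endothelial markers were lower and 1 higher, and 5 of 13 epithelium markers were lower and 2 higher. In WD+IM against WD, 10 of 12 endothelial and 3 of 5 smooth muscle markers rose, and 0 red cell and 0 macrophage markers were called. The list of gonad and germ cell markers had 0 tested genes. Over all probe sets tested, 18.6% were lower and 11.3% higher in UB than in WD. For WD+IM against WD, 5.62% of all rose and 7.06% fell. The part of these shifts in the results for these cadherins, Fat4 and the 3 protocadherins Pcdh9, Pcdh15 and Pcdh18 was not tested.

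**Figure D2:**
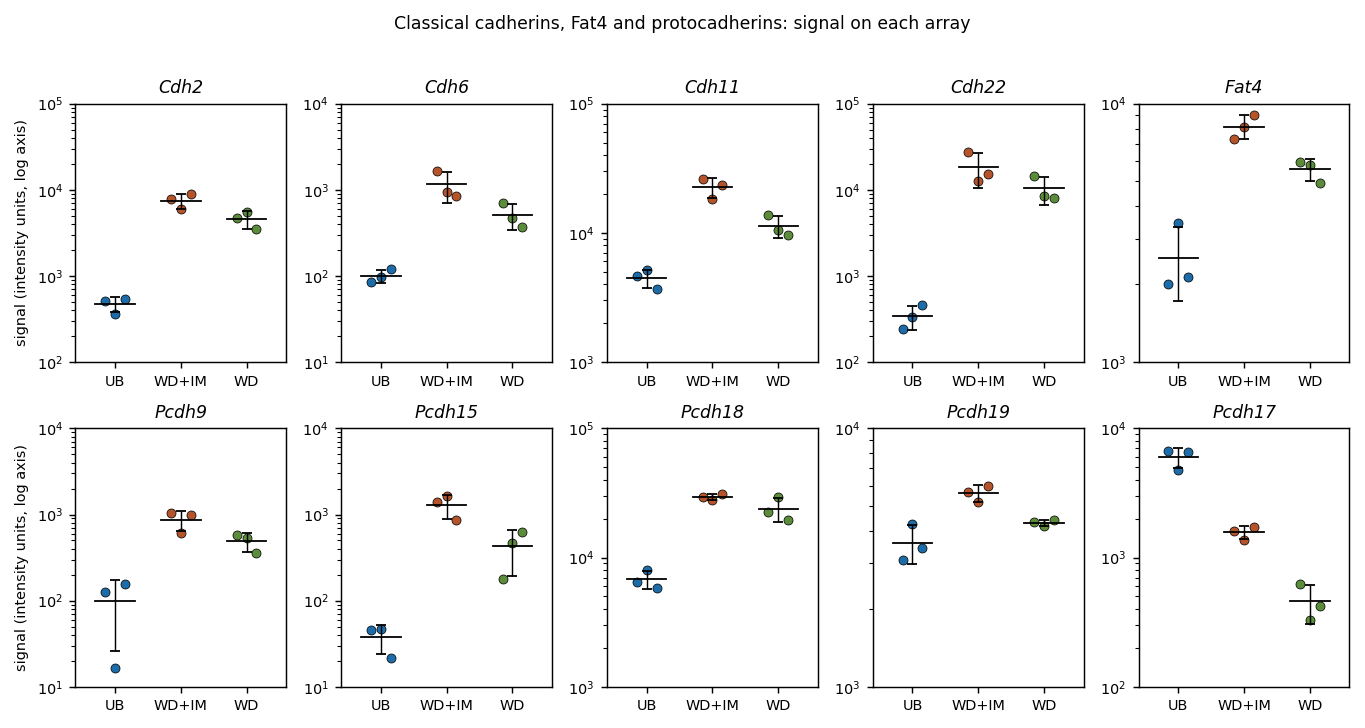
Signal on each array (points, intensity units on log axes) with the mean and SD of 3 arrays for 5 cadherins and 5 protocadherins. Cdh2, Cdh6, Cdh11, Cdh22, Fat4, Pcdh9, Pcdh15 and Pcdh18 lie lowest on all UB arrays, whereas Pcdh17 is highest there.

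Of the atypical cadherins only Cdh16 was tested. Cdh16 (Ksp-cadherin), a kidney epithelial cadherin with a short cytoplasmic tail that lacks the catenin-binding part, had signals of 3621, 4681 and 4249 in UB, 2143, 4473 and 2679 in WD+IM, and 12079, 16677 and 13911 in WD. Every WD array lay above all UB and WD+IM arrays, which overlapped with each other. Cdh16 was 3.36-fold lower in UB than in WD (-1.75 ± 0.24, adjusted p = 0.000245) and 4.72-fold lower in WD+IM than in WD (-2.24 ± 0.24, adjusted p = 0.00013). The call in UB was lost with the spike ratio as a term (-1.54, adjusted p = 0.0853). UB and WD+IM differed by 0.49 ± 0.24 (adjusted p = 0.16), and this was called after median centring (0.85, adjusted p = 0.0263) and without WD+IM replicate 2 (0.78, adjusted p = 0.0142). The epithelium markers also fell in WD+IM against WD, with a median of -1.47, and their part in the Cdh16 result was not tested.

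Cdh13, Cdh17 and Cdh23 were not tested. Of the cadherin-related genes Cdhr2, a protocadherin of brush borders, averaged 275 ± 56.8 in UB, 591 ± 315 in WD+IM and 377 ± 156 in WD (SD, n = 3 each). It was called in no comparison, although without WD+IM replicate 3 the difference between UB and WD+IM was (-1.36, adjusted p = 0.0413). Cdhr2 was above the 40th percentile on 2 WD+IM arrays, 1 UB array and no WD array, and passed the filter through these. Cdhr1, Cdhr4 and Cdhr5 were not tested.

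The tested desmosomal genes fell in WD+IM, with the exception of plakoglobin. The epithelium markers fell in the same samples, and their part in these results was not tested. Dsg2, the desmoglein of simple epithelia, had signals of 10046, 10653 and 8776 in UB, 1957, 4004 and 3593 in WD+IM, and 6242, 9088 and 6790 in WD. All WD+IM arrays lay below the rest. Dsg2 fell by 1.24 ± 0.24 in WD+IM against WD (adjusted p = 0.00493) and was 3.18-fold higher in UB than in WD+IM (1.67 ± 0.24, adjusted p = 0.00024), and 0.43 ± 0.24 in UB against WD was not called (adjusted p = 0.199). After median centring that last difference was called (0.89, adjusted p = 0.0295).

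Dsc2, its desmocollin partner, had signals of 3513, 2816 and 2820 in UB, 1086, 1480 and 1455 in WD+IM, and 5546, 3796 and 4551 in WD. The groups were ordered WD+IM, UB, WD with no overlap. Dsc2 fell by 1.75 ± 0.20 in WD+IM against WD (adjusted p = 0.000177) and was higher by 1.16 ± 0.20 in UB against WD+IM (adjusted p = 0.000796). Its fall of 0.59 ± 0.20 in UB against WD (adjusted p = 0.0409) was lost in 12 of 22 alternatives, including quantile normalization (adjusted p = 0.0952), median centring (0.73) and the absence of UB replicate 1 (0.057), UB replicate 2 (0.113), UB replicate 3 (0.121), WD replicate 1 (0.145) or WD replicate 3 (0.0758). Dsc1 and Dsg1 of the skin type were not tested, and the untested desmosomal cadherin probe sets had signals of 8.93 to 452.

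The plakophilins bind desmosomal cadherins and desmoplakin. Pkp2 had signals of 1412, 1334 and 1082 in UB, 464, 679 and 579 in WD+IM, and 1808, 1819 and 1580 in WD. Pkp3 had 1506, 1581 and 1355 in UB, 423, 103 and 604 in WD+IM, and 1682, 1682 and 1513 in WD. For both genes every WD+IM array was below every other array. Pkp2 fell by 1.53 ± 0.22 in WD+IM against WD (adjusted p = 0.000822) and Pkp3 by 2.22 ± 0.43 (adjusted p = 0.00458), and in UB against WD+IM they were higher by 1.10 ± 0.22 (adjusted p = 0.00301) and 2.09 ± 0.43 (adjusted p = 0.00306). With the spike ratio as a term the calls in UB against WD+IM were lost for Pkp2 (adjusted p = 0.0564) and Pkp3 (0.172).

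Pkp4, a p120-related protein found at adherens junctions as well as desmosomes, had signals of 12582, 12132 and 8621 in UB, 3357, 4710 and 4281 in WD+IM, and 8770, 8406 and 8304 in WD. WD+IM was again lowest on every array. Pkp4 fell by 1.05 ± 0.17 in WD+IM against WD (adjusted p = 0.00184) and was 2.67-fold higher in UB than in WD+IM (1.42 ± 0.17, adjusted p = 6.46e-05). In UB against WD it differed by 0.37 ± 0.17 (adjusted p = 0.129), which was called after median centring (0.83, adjusted p = 0.0171), without UB replicate 3 (0.54, adjusted p = 0.0458), with array weights (0.0358) and with the mean of both Pkp4 probe sets (0.0352). Another probe set of Pkp4 was called in no comparison. With the beta-actin covariate the calls in WD+IM against WD were lost for Pkp4 (-0.76, adjusted p = 0.119), Pkp2 (-1.26, 0.0542), Pkp3 (-2.11, 0.104) and Dsg2 (-1.05, 0.148). The beta-actin ratio was 1.47 to 1.92 in WD+IM and 2.19 to 4.87 in WD, so the covariate is partly confounded with that comparison. Pkp1 was not tested.

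Jup (plakoglobin), the armadillo protein shared by desmosomes and adherens junctions, went the other way. Its signals were 4386, 4103 and 4731 in UB, 8153, 9425 and 8549 in WD+IM, and 5527, 9420 and 4969 in WD. The UB arrays lay below all others, while WD+IM and WD overlapped through WD replicate 2. Jup was 1.97-fold lower in UB than in WD+IM (-0.98 ± 0.21, adjusted p = 0.00405), a call lost after median centring (-0.61, adjusted p = 0.0778) and with the spike ratio as a term (0.0734). The differences of -0.53 ± 0.21 in UB against WD (adjusted p = 0.0715) and 0.44 ± 0.21 in WD+IM against WD (adjusted p = 0.185) were not called. Without WD replicate 2 the WD+IM difference was called (0.72, adjusted p = 0.01), and without WD replicate 3 the UB difference was (-0.71, adjusted p = 0.0279).

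**Figure D3:**
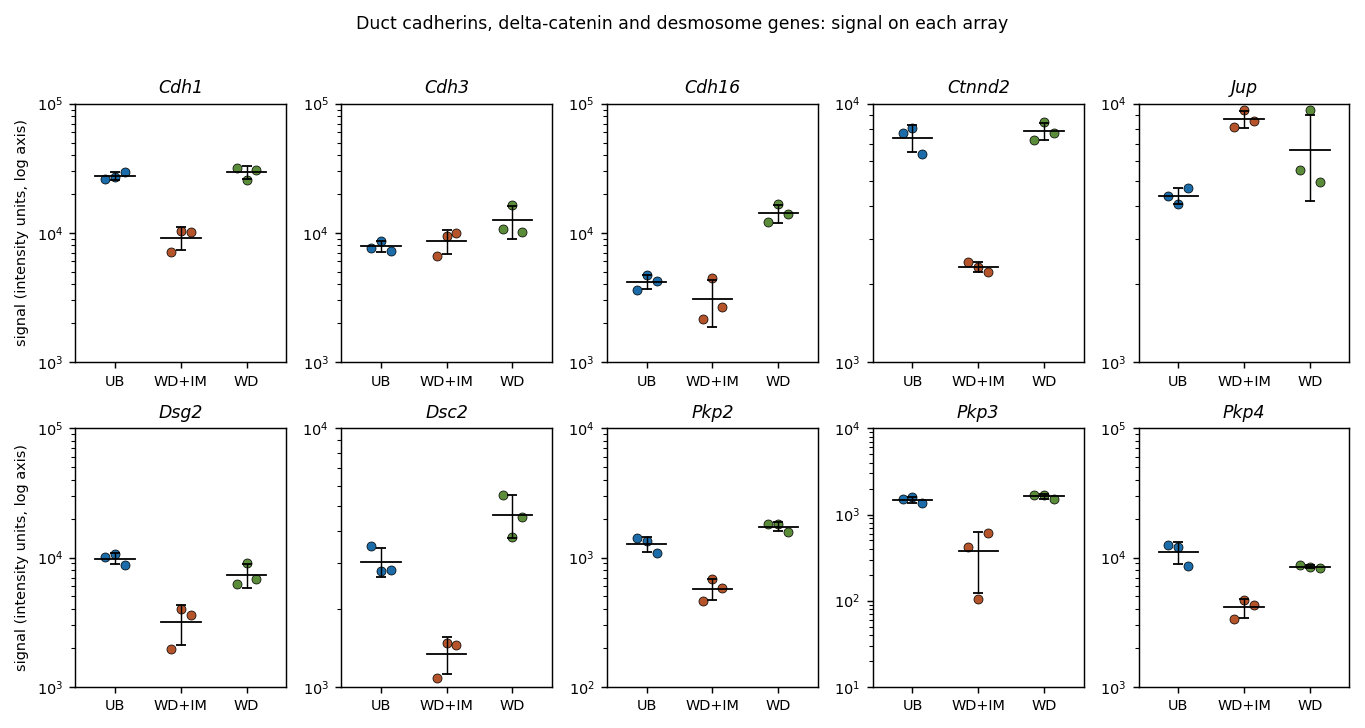
Signal on each array (points, intensity units on log axes) with the mean and SD of 3 arrays for Cdh1, Cdh3, Cdh16, Ctnnd2, Jup and 5 desmosomal genes. Cdh1, Ctnnd2, Dsg2, Dsc2, Pkp2, Pkp3 and Pkp4 lie lowest on all WD+IM arrays, and Cdh16 is highest on all WD arrays.

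Among the catenins the core proteins of the adherens junction were called in no comparison by their brightest probe set. Ctnna1 (alpha-E-catenin), the link to actin, had signals of 49167, 54645 and 44428 in UB, 42264, 52020 and 40736 in WD+IM, and 48511, 51663 and 60686 in WD. Ctnnd1 (p120-catenin), which holds cadherins at the membrane, had 2437, 2920 and 2967 in UB, 3290, 2762 and 2204 in WD+IM, and 3349, 3161 and 3684 in WD. Both genes stayed within -0.32 to 0.14 on the log2 scale, with standard errors of 0.14 for Ctnna1 and 0.18 for Ctnnd1. Ctnna2 (alpha-N-catenin), the neural form, averaged 564 ± 69.6 in UB, 604 ± 380 in WD+IM and 1094 ± 140 in WD (SD, n = 3 each) and was not called. Without WD+IM replicate 2, Ctnna2 was called lower in both WD+IM (-1.40, adjusted p = 0.0131) and UB (-0.90, adjusted p = 0.027) than in WD, and in a fit of UB and WD alone it was called in UB (adjusted p = 0.02).

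The probe sets of Ctnnb1 (beta-catenin), which binds cadherin tails and also acts with TCF/LEF factors in Wnt signalling, disagreed. The brightest had signals of 72328, 78910 and 60304 in UB, 70146, 82057 and 70442 in WD+IM, and 87500, 81334 and 92308 in WD. It gave -0.31 ± 0.13 in UB against WD (adjusted p = 0.0818), -0.23 ± 0.13 in WD+IM against WD (0.257) and -0.08 ± 0.13 in UB against WD+IM (0.709). Another probe set was called higher in WD+IM than in WD (0.60 ± 0.16, adjusted p = 0.0299), with signals of 22305, 28964 and 24960 in WD+IM and 15389, 14066 and 21386 in WD. A further one was called lower in UB than in WD (-0.98 ± 0.19, adjusted p = 0.0028), with 33862, 32524 and 36895 in UB and 77490, 66621 and 60990 in WD. No direction is therefore given for Ctnnb1.

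**Figure D4:**
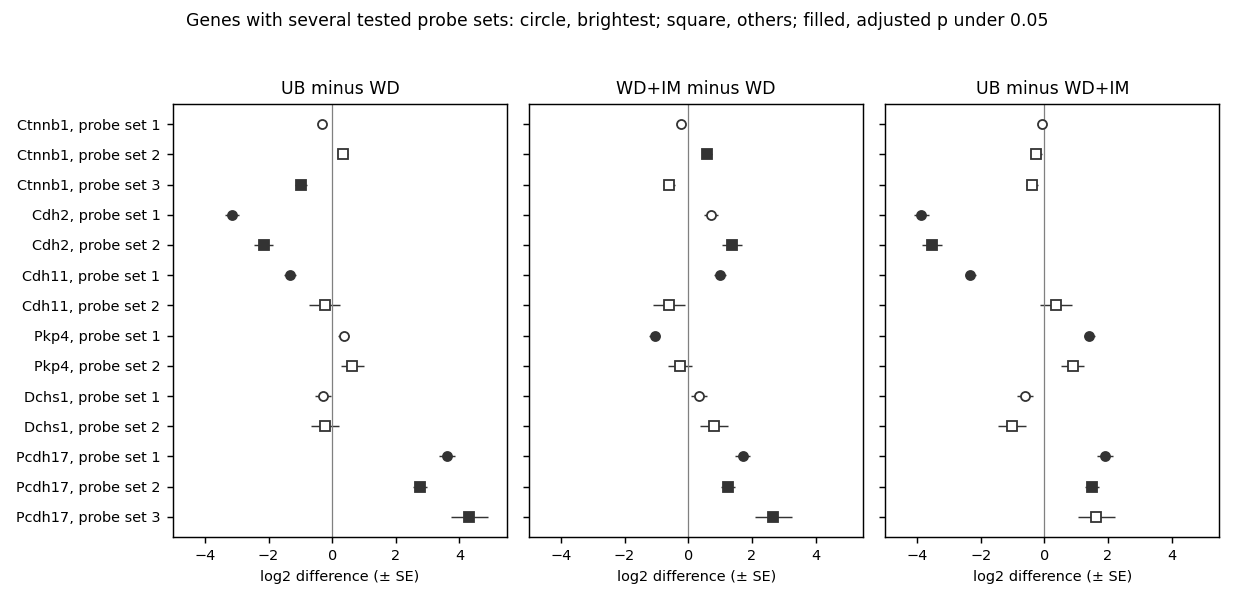
Log2 differences (± SE, 3 arrays a group) of the 6 genes with several tested probe sets, with circles for the brightest probe set, squares for the others and filled symbols for an adjusted p under 0.05. The probe sets of Pcdh17 and Cdh2 lie on the same side of 0 in each panel. Those of Ctnnb1 do not in UB against WD or WD+IM against WD, and those of Cdh11 do not in WD+IM against WD or UB against WD+IM.

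Ctnnd2 (delta-catenin), a p120 relative best known from neurons, was low in WD+IM, as were the desmosomal genes other than plakoglobin and the epithelium markers. Its signals were 7699, 8059 and 6372 in UB, 2431, 2339 and 2238 in WD+IM, and 7259, 8459 and 7729 in WD. The WD+IM arrays lay below all others, and UB and WD overlapped. Ctnnd2 fell by 1.72 ± 0.14 in WD+IM against WD (adjusted p = 4.42e-05) and was 3.10-fold higher in UB than in WD+IM (1.63 ± 0.14, adjusted p = 3.47e-06). The difference of -0.09 ± 0.14 between UB and WD was not called (adjusted p = 0.67). In WD+IM against WD, 11 of 13 epithelium markers fell and 0 rose, with a median of -1.47. The part of this shift in the Ctnnd2 result was not tested.

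The large polarity cadherins split by gene. Fat4, the mammalian Fat receptor of Dachsous, had signals of 2003, 3467 and 2127 in UB, 7300, 8113 and 9052 in WD+IM, and 5970, 5785 and 4928 in WD. The groups were ordered UB, WD, WD+IM with no overlap. Fat4 fell by 1.16 ± 0.20 in UB against WD (adjusted p = 0.00137) and was 3.27-fold lower in UB than in WD+IM (-1.71 ± 0.20, adjusted p = 4.68e-05). The UB against WD call was lost with the spike ratio as a term (-1.39, adjusted p = 0.0663). In WD+IM against WD the difference of 0.55 ± 0.20 was not called (adjusted p = 0.0971), except without UB replicate 2, which enters the shared variance (adjusted p = 0.0416).

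Dchs1, the Dachsous ligand of Fat4, had signals of 2548, 3679 and 2442 in UB, 3881, 3952 and 5338 in WD+IM, and 3964, 4409 and 2344 in WD. Only UB and WD+IM did not overlap. Dchs1 differed by -0.60 ± 0.25 between UB and WD+IM (adjusted p = 0.0987) and was called there without WD replicate 3 (adjusted p = 0.0425), with array weights (0.034), with the beta-actin covariate (-0.70, 0.0244) and with the mean of both probe sets (-0.82, 0.0115). Fat1, a Fat relative that acts on actin at cell borders, had signals of 27247, 36518 and 22758 in UB, 27532, 22246 and 20526 in WD+IM, and 29439, 29217 and 30972 in WD. It was called in no comparison, with -0.08 ± 0.17 in UB against WD and -0.36 ± 0.17 in WD+IM against WD, and 0.28 ± 0.17 in UB against WD+IM was called after median centring alone (0.65, adjusted p = 0.026). Celsr2, a Flamingo-type cadherin of planar polarity, averaged 1056 ± 126 in UB, 827 ± 390 in WD+IM and 1334 ± 518 in WD (SD, n = 3 each) and was not called. Fat2 averaged 257 ± 116 in UB, 121 ± 55.8 in WD+IM and 495 ± 235 in WD and was not called, except in WD+IM against WD without WD replicate 2 (-2.07, adjusted p = 0.0409) or without a mean-variance trend (0.0463). Fat2 had no WD+IM array above the 40th percentile and passed the filter through the other groups. Fat3 and Celsr3 were not tested.

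The non-clustered protocadherins are cadherin-superfamily proteins that do not bind beta-catenin. In the main fit Pcdh17, of this family, was the only member gene that rose in UB against WD. Among the alternatives, Dsg2 was called higher there after median centring, and Pkp4 under 4 alternatives that include median centring. The Pcdh17 signals were 6707, 4786 and 6595 in UB, 1611, 1363 and 1717 in WD+IM, and 628, 328 and 424 in WD. The groups were ordered WD, WD+IM, UB with no overlap. Pcdh17 was 12.2-fold higher in UB than in WD (3.61 ± 0.24, adjusted p = 9.25e-07), 3.26-fold higher in WD+IM than in WD (1.70 ± 0.24, adjusted p = 0.000716) and 3.75-fold higher in UB than in WD+IM (1.91 ± 0.24, adjusted p = 8.72e-05).

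The other probe sets of Pcdh17 gave 2.77 ± 0.22 and 4.31 ± 0.58 in UB against WD and 1.26 ± 0.22 and 2.67 ± 0.58 in WD+IM against WD, all called. In UB against WD+IM they gave 1.51 ± 0.22, which was called, and 1.64 ± 0.58, which was not (adjusted p = 0.0562). Markers of neurons and neural crest, a list that includes Ret, summed over 8 genes to 49760 to 60292 in UB, 6134 to 6383 in WD+IM and 10067 to 13059 in WD. Ret, which is also in the epithelium list, had a mean of 45203 in UB and makes up most of that sum. Of 6 such markers tested, 3 were higher in UB than in WD (Ret, Gap43 and Elavl4) and 1 was lower (Stmn2). Over all probe sets tested, 11.3% were higher and 18.6% lower there. The part of these markers in the Pcdh17 result was not tested. Its neighbours in the GRCr8 gene table, Pcdh8 and Pcdh20, with 3 protein-coding genes between Pcdh17 and each of them, were not tested.

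Pcdh18, a protocadherin of mesenchymal and neural tissue, had signals of 6525, 7966 and 5819 in UB, 29646, 27932 and 31039 in WD+IM, and 22438, 29226 and 19576 in WD. The UB arrays lay below all others, and WD+IM and WD overlapped. Pcdh18 was 3.47-fold lower in UB than in WD (-1.80 ± 0.16, adjusted p = 1.06e-05) and 4.37-fold lower than in WD+IM (-2.13 ± 0.16, adjusted p = 1.19e-06). In WD+IM against WD it differed by 0.33 ± 0.16 (adjusted p = 0.206).

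Pcdh15, the protocadherin of hair cell tip links, had signals of 45.1, 46.3 and 21.8 in UB, 1386, 1653 and 857 in WD+IM, and 177, 466 and 635 in WD. The groups did not overlap, and the UB signals were close to or below the value added before log2. Pcdh15 was called lower in UB than in WD (-2.36 ± 0.49, adjusted p = 0.00395) and than in WD+IM (-3.97 ± 0.49, adjusted p = 6.49e-05). The sizes depend on the added value, and with that value at the 1st or the 25th percentile of all signals Pcdh15 gave -3.10 or -1.40 against WD and -4.81 or -2.73 against WD+IM. Its rise of 1.61 ± 0.49 in WD+IM against WD (adjusted p = 0.0494) was lost in 12 of 22 alternatives, including the beta-actin covariate (0.78, adjusted p = 0.581). It was also lost without UB replicate 1 (0.0647) or 2 (0.0578), WD replicate 1 (0.147) or 2 (0.0873), or WD+IM replicate 1 (0.114), 2 (0.17) or 3 (0.0589). With the spike ratio as a term the fall in UB against WD was lost (-1.57, adjusted p = 0.364).

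Pcdh9 had signals of 126, 16.7 and 158 in UB, 1030, 602 and 977 in WD+IM, and 578, 531 and 355 in WD. The groups did not overlap. Pcdh9 fell by 2.01 ± 0.49 in UB against WD (adjusted p = 0.00949) and was lower by -2.78 ± 0.49 in UB against WD+IM (adjusted p = 0.00108). The call against WD was lost after quantile normalization (-1.34, adjusted p = 0.0796), with the spike ratio as a term (0.203) and with the beta-actin covariate (0.052). Neither Pcdh9 nor Pcdh15 had a UB array above the 40th percentile, so both passed the filter through the other groups.

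Pcdh19, which can act together with N-cadherin in adhesion, had signals of 3083, 4274 and 3445 in UB, 5698, 5167 and 6007 in WD+IM, and 4347, 4172 and 4413 in WD. WD+IM was highest on every array, and UB and WD overlapped. It was lower by -0.65 ± 0.15 in UB against WD+IM (adjusted p = 0.0079), a call lost after median centring (-0.28, adjusted p = 0.335), with the spike ratio as a term (0.0512) and without UB replicate 1 (0.0518). Pcdh8, Pcdh10 and Pcdh20 were not tested.

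Of the 9 clustered protocadherins, neuronal recognition proteins encoded in tandem arrays, 2 were tested and neither was called. Pcdhb6 averaged 217 ± 24.2 in UB, 404 ± 96.2 in WD+IM and 481 ± 48.4 in WD, and Pcdhb19 averaged 651 ± 88.9 in UB, 789 ± 158 in WD+IM and 1013 ± 234 in WD (SD, n = 3 each). The nearest to a call was Pcdhb6 in UB against WD (-1.0 ± 0.36, adjusted p = 0.0515), which was called without WD+IM replicate 1 (0.0494) and under 3 further alternatives. Pcdhb6 had no UB array above the 40th percentile and passed the filter through the other groups. The other genes of the clusters, Pcdha12, Pcdha13, Pcdhb9, Pcdhb12, Pcdhb17, Pcdhb21 and Pcdhb22, were not tested, with signals of 8.05 to 912. These genes are near-copies of each other, and a probe set may detect more than the gene it is named for.

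Promoter sequences are shown for Pcdh17, the member highest in UB, for Pcdh15 and Pcdh18, 2 protocadherins lowest in UB, and for Ctnnd2, lowest in WD+IM. They are RefSeq sequences of the GRCr8 assembly, each 250 bases before to 50 bases after the annotated start and written 5' to 3' on the gene's strand. Capitals mark CAGGTG on either strand (read as CACCTG here), a 6-base E-box that the repressors Snai1, Zeb1 and Zeb2 can bind. The windows are chr15:66632892-66633191 on the plus strand for Pcdh17, chr20:14824749-14825048 on the minus strand for Pcdh15, chr2:135996777-135997076 on the minus strand for Pcdh18 and chr2:82879219-82879518 on the plus strand for Ctnnd2.
Pcdh17: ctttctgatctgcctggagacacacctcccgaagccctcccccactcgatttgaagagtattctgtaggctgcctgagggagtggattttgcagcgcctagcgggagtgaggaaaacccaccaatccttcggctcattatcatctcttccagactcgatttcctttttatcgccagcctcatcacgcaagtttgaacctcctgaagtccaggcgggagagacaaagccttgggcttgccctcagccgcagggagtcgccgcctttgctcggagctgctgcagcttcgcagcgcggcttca
Pcdh15: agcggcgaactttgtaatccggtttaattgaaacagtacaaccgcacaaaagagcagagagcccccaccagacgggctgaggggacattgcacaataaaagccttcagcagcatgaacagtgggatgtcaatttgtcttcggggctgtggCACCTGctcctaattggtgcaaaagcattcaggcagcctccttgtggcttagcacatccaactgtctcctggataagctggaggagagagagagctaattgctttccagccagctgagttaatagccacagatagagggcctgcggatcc
Pcdh18: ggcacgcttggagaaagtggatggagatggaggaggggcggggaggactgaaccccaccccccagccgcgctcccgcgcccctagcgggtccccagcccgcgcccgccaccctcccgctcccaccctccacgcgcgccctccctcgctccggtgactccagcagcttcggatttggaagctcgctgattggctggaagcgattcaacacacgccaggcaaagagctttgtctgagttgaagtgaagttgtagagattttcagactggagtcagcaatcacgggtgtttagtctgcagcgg
Ctnnd2: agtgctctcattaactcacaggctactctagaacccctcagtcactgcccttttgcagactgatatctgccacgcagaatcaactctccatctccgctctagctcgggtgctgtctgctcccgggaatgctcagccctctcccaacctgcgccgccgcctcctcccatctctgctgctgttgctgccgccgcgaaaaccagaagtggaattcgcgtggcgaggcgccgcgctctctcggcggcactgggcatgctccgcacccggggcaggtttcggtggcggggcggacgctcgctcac

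The match in the Pcdh15 window begins at position -100, counting the annotated start as 0, and the windows of Pcdh17, Pcdh18 and Ctnnd2 hold no match. RefSeq promoters were found for 22 of the 32 tested genes. CAGGTG on either strand was in 8 of these 22 windows, which is 36.4%, against 18.8% of 33469 promoters in the table. Matches were found for Dsc2, Dsg2 and Jup of the desmosome, for Ctnna2, Celsr2, Fat1 and Cdhr2, and for Pcdh15. The looser E-box CANNTG, which includes CAGGTG, was in 15 of 22 windows, or 68.2%, against 72.1% of all. A match is a description of these letters and not a binding site. Cdh1, Cdh2, Cdh3, Cdh11, Cdh16, Ctnna1, Dchs1, Pcdh19, Pkp2 and Pkp3 had no entry.

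A list of regulators of epithelial and mesenchymal state, some of which bind E-boxes, was measured on the same arrays. Of 9 tested, 0 rose and 5 fell in UB against WD, 6 rose and 1 fell in WD+IM against WD, and 1 rose and 7 fell in UB against WD+IM. Over all probe sets tested, 11.3% were higher and 18.6% lower in UB against WD. The shares were 5.62% and 7.06% in WD+IM against WD, and 11% and 14.5% in UB against WD+IM. Of the 15 genes listed, Snai2, Grhl2, Ovol1, Ovol2 and Esrp2 were not matched. The mesenchyme markers, 10 of 11 lower in UB against WD and 7 of 11 higher in WD+IM against WD, and the endothelial markers, 10 of 12 higher in WD+IM, moved in the same samples, and their part in these counts was not tested. Zeb1, a repressor of Cdh1, was lower by -2.21 ± 0.17 in UB against WD and higher by 1.06 ± 0.17 in WD+IM against WD. Twist1, which also stands in the mesenchyme list, gave -2.23 ± 0.21 and 1.41 ± 0.21 in the same comparisons, and Snai1 gave -1.27 ± 0.23 and 1.47 ± 0.23. Zeb2 gave 0.05 ± 0.44 in UB against WD, which was not called, and 2.73 ± 0.44 in WD+IM against WD. Esrp1, a splicing factor of epithelial cells, fell by 1.72 ± 0.15 in WD+IM against WD and gave 0.19 ± 0.15 in UB against WD. Grhl3, another epithelial regulator, was called lower in UB than in WD+IM, whereas Esrp1 was called higher there. The median of the list was -0.96 in UB against WD, 1.13 in WD+IM against WD and -2.74 in UB against WD+IM. The list mixes regulators of both states, so its counts and median speak for neither.

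Desmosome plaque partners include desmoplakin and the keratins tied to it. Of 9 tested, 1 rose and 8 fell in UB against WD, 0 rose and 6 fell in WD+IM against WD, and 5 rose and 2 fell in UB against WD+IM. The shares higher and lower over all probe sets tested were 11.3% and 18.6%, 5.62% and 7.06%, and 11% and 14.5% in these comparisons. Dsp (desmoplakin), which ties plakophilins to keratin, averaged 14018 in UB, 5084 in WD+IM and 21254 in WD. It fell by 2.08 ± 0.21 in WD+IM against WD and by 0.62 ± 0.21 in UB against WD. Perp, a desmosomal membrane protein, was the one that rose in UB (1.05 ± 0.21) and fell by 1.85 ± 0.21 in WD+IM. Krt19, a keratin, was lower by -4.69 ± 0.16 in UB against WD and differed by 0.01 ± 0.16 in WD+IM against WD. Krt8, Krt18 and Krt19 are also in the epithelium marker list.

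Of 22 adherens junction partners tested, 1 rose and 4 fell in UB against WD, 2 rose and 4 fell in WD+IM against WD, and 5 rose and 3 fell in UB against WD+IM. Beside these counts, the shares of all probe sets higher and lower were 11.3% and 18.6%, 5.62% and 7.06%, and 11% and 14.5%. Epcam, an epithelial adhesion protein, averaged 52667 in UB, 17292 in WD+IM and 54746 in WD, and fell by 1.72 ± 0.20 in WD+IM against WD. Camsap3, which anchors microtubules at epithelial junctions, fell by 2.19 ± 0.18 there. Nectin3, an immunoglobulin-type adhesion protein of adherens junctions, was the one that rose in UB against WD (1.59 ± 0.17), and gave -0.06 ± 0.17 in WD+IM against WD. Lima1, an actin-binding partner of alpha-catenin, fell by 1.20 ± 0.23 in UB and rose by 1.03 ± 0.23 in WD+IM, each against WD.

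Among 19 planar polarity partners tested, 1 rose and 4 fell in UB against WD, 3 rose and 1 fell in WD+IM against WD, and 3 rose and 4 fell in UB against WD+IM. Prickle1, a cytoplasmic polarity protein, rose by 1.44 ± 0.14 in UB and by 1.54 ± 0.14 in WD+IM, each against WD. Lats2, a kinase of the Hippo pathway, fell by 1.23 ± 0.20 in UB against WD. Of 16 partners of beta-catenin in its destruction and in the nucleus, 2 rose and 7 fell in UB against WD, 0 rose and 4 fell in WD+IM against WD, and 1 rose and 4 fell in UB against WD+IM. Lef1, a nuclear partner, fell by 1.02 ± 0.15 in UB against WD and Tcf7 rose by 0.60 ± 0.14. Of 9 genes of cadherin cleavage and traffic, 1 rose and 0 fell in UB against WD, 1 rose and 2 fell in WD+IM against WD, and 0 rose and 1 fell in UB against WD+IM. Adam15, a metalloproteinase, was the one that rose in WD+IM against WD (1.95 ± 0.30) and the one that was lower in UB than in WD+IM (-1.31 ± 0.30). For each of these lists, the shares of all probe sets higher and lower were 11.3% and 18.6% in UB against WD. They were 5.62% and 7.06% in WD+IM against WD, and 11% and 14.5% in UB against WD+IM.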

How the data were processed

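Total RNA of 9 pooled tissue samples was biotin-labelled and measured on single-colour Affymetrix rat arrays, per the labels' protocols. The deposited table holds 1 intensity per probe set and array. GCOS, software of the array maker, is named in the submitters' processing notes, with its version, algorithm and parameters not given in the sources used here. The deposited intensities are linear, and with 2% trimmed at either end every array has a mean of 2501, so a difference is relative to the rest of the array. No detection calls were used, so a weak signal is not told from background. The array's build is not named, and the only coordinates given are those of RefSeq promoters in GRCr8, which also gave the gene neighbours.

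Of 31099 probe sets, 57 controls were left out, and the rest carried 1 symbol (20826), several (436) or none (9780). By Entrez ID, 20758 single-symbol probe sets were found in the GRCr8 gene table. All 58 member genes keep the symbol of the platform table, and 56 were found in the GRCr8 table. Models were fitted with limma 3.58.1 in R 4.3.3 to log2(intensity + 46.2), with a group-only model for all 9 arrays, a mean-variance trend, 6 residual and 6.09 prior degrees of freedom, and Benjamini-Hochberg adjustment over 20334 probe sets. All adjusted p-values come from limma. The brightest probe set by mean log2 value stands for a gene. The procedure was checked on simulated data.

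The members, the gene lists, the tests and the alternatives were chosen with earlier results of these data known. Every member may be named. Values on every array are given for up to 12 rises and 12 falls per comparison and for a fixed set of members. Other genes are named from the junction partner and marker lists, at most 6 per list with the smallest p. Grhl3 was named outside the rule on p, as an epithelial regulator that went the other way from Esrp1. Alternatives changed the scaling (quantile normalization or median centring), the pseudocount, the filter or the variance model, or used array weights, fits of the compared groups alone, the replicate number as a block, the spike ratio (above 2 or not) as a term, the log2 beta-actin ratio as a covariate, the mean over a gene's probe sets, and leaving out each array. Fits within arrays of similar spike ratio were added after seeing the data.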

Additional observations from a re-analysis of the deposited data

How the results depend on the processing

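The count of 16 member probe sets called in UB against WD was 14 to 17 when each array was left out in turn, and 7 (3 higher, 4 lower) with the spike ratio as a term. All UB arrays and no WD array had a high spike ratio, so that term rests on the WD+IM arrays alone. The count of 15 in WD+IM against WD was 13 to 15 with each array left out, 13 within the 5 arrays of low spike ratio, and 8 (4 higher, 4 lower) with the log2 beta-actin ratio as covariate. Over all probe sets, 2578 were called there in the main fit, 1444 within those 5 arrays and 826 with the covariate. The 2 larger drops in member counts thus came with drops over all probe sets. The count of 20 in UB against WD+IM was 19 to 22 with each array left out. Within the 4 arrays of high spike ratio, where WD+IM is a single array assumed to vary like the UB arrays, it was also 20, but with 11 higher and 9 lower and 18 calls shared with the full fit, so it says nothing of stability. There Celsr2 was called higher in UB (1.30, adjusted p = 0.0319), and Pcdh9 (0.0543) and Pcdh19 (0.0698) were not called. Same-numbered arrays had deviations correlated at -0.35 to 0.28, so the numbers were not taken to pair the samples. With the replicate block the counts were 15, 14 and 21, and Dsc2 in UB against WD (adjusted p = 0.0671) and Pcdh15 in WD+IM against WD (0.0807) were not called. The other alternatives kept each count within 1.5 times its value. The beta-actin ratio was 1.47 to 1.92 in WD+IM and 2.19 to 4.87 in WD, so that covariate is partly confounded with WD+IM against WD. The cause of the 2 larger drops was not tested.

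No called gene reversed. Over all alternatives, calls of single genes were lost 26, 17 and 9 times and gained 15, 11 and 10 times in UB against WD, WD+IM against WD and UB against WD+IM. Of the called genes, 5 of 12 in UB against WD (Cdh2, Cdh11, Cdh22, Pcdh17 and Pcdh18), 5 of 11 in WD+IM against WD (Cdh1, Cdh16, Dsc2, Ctnnd2 and Pcdh17) and 13 of 18 in UB against WD+IM kept their call under every alternative run.

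Group sizes of 3 arrays and the lack of detection calls limit what can be said of weak genes, and 26 of the 58 genes gave no test.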

Other observations

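Probe sets annotated with several symbols of the clustered protocadherins, 4 in number, were outside the members and were tested in the same fit. A gamma-cluster probe set annotated with 13 symbols had signals of 8943, 8930 and 8660 in UB, 14349, 21292 and 15535 in WD+IM, and 13040, 11476 and 16050 in WD. It was lower in UB than in WD (-0.60 ± 0.17, adjusted p = 0.0192) and lower in UB than in WD+IM (-0.92 ± 0.17, adjusted p = 0.00136). An alpha-cluster probe set annotated with 15 symbols had signals of 351, 475 and 438 in UB, 1253, 1667 and 1651 in WD+IM, and 1468, 1080 and 1080 in WD. It gave -1.42 ± 0.24 in UB against WD (adjusted p = 0.0013) and -1.74 ± 0.24 in UB against WD+IM (adjusted p = 0.000187). For both, every UB array lay below every other array, and WD+IM and WD overlapped. The remaining gamma and alpha probe sets were called in no comparison. These signals cannot be assigned to single genes of the clusters.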
